A study of Homo sapiens with 68 samples.

Results

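hnRNP C was profiled by TLC-CLIP in HEK293T cells, a human embryonic kidney line, from 50k and from 500 cells, and the question was which bound genes and sites are lost at the lower cell number. In CLIP, ultraviolet light links proteins to the RNA they touch, 1 protein is pulled down with an antibody, and the RNA pieces that come with it are sequenced. The comparison takes 8 of the 68 libraries of the series, chosen by their titles: 4 titled 500 and 4 titled 50k. Each cell number has 2 libraries without and 2 libraries with an added digestion by RecJ, an exonuclease that removes left-over adapter, so RecJ state was kept as a block. What the 8 libraries share is the antibody against hnRNP C1/2 (clone 4F4), ultraviolet crosslinking, 0.005 U of RNase and the omission of PAGE, the gel step that selects protein-RNA complexes by size. The sample labels give 50000 cells for the libraries titled 500, and for 4 libraries titled 5k that are set beside them here; the titles and not this label define the groups. The libraries of a group are numbered 1 and 2, but nothing says that they came from separate cultures, so the p-values measure the spread between these libraries, which may be technical.

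hnRNP C is an abundant nuclear protein that coats newly made pre-mRNA and binds runs of uridine. Much of its binding lies in introns, and it is known to compete with the splicing factor U2AF for uridine tracts, including those in antisense Alu elements, which keeps such elements from being used as exons.

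The data are 1 peak list per library, in hg19 coordinates, with a p-value, a gene identifier and a last number in each peak's name. That number was at least 4 and is taken here as a read number per peak, although no source says what it counts. The files and the tables at hand do not pair the gene identifiers with names: 0 of 16654 identifiers could be matched. Sites are therefore given by position, and genes mostly by class. No sequence is shown, since no genome of this build was at hand.

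The lists from 500 cells were shorter. Without RecJ the 50k libraries listed 441289 and 471844 peaks and the 500-cell libraries 279010 and 281738. With RecJ they listed 379280 and 487908 peaks at 50k against 210295 and 307258 at 500. Every 500-cell library was below every 50k library, and the difference of the mean log2 peak numbers was -0.73 (18.03 ± 0.24 against 18.76 ± 0.16, SD, n = 4 each). An exact two-sided permutation test within RecJ blocks gave p = 0.0556, which is the smallest value that its 36 relabellings allow, and 0.0667 after Benjamini-Hochberg adjustment over 6 library-level values. Such a test cannot pass 0.05 here, so the non-overlap of the groups and the size of the difference carry the description.

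The peaks also held fewer reads and recurred less between replicates. The median read number per peak was 11, 11, 10 and 11 at 50k and 9, 9, 8 and 8 at 500, again without overlap (exact permutation p = 0.0556, adjusted 0.0667, n = 4 each). Summed over all peaks, the read number was 8440542, 9368492, 6754513 and 10024447 at 50k and 3923387, 3866029, 2615635 and 3874603 at 500. The number of sequenced reads is not given, so depth is unknown. This summed read number was lower in every 500-cell library than in every 50k library, and its part in the results that follow was not tested. The 5k libraries did not lie between. With overlapping peaks of a library merged and given their highest read number, they held 8453227, 8464094, 6394757 and 7530905. The 50k libraries held 6359240 to 9391714 by that measure. The share of peaks overlapped by at least 1 nt in the other library of the same group was 45.8% ± 4.5 (SD, n = 4) at 50k and 35.2% ± 5.2 at 500, a difference of -10.56 percentage points (exact permutation p = 0.0556, adjusted 0.0667). When the peaks were moved by 1000 nt, the overlap was 11.2% to 14.2% at 50k and 8.79% to 12.8% at 500. Replicate 2 with RecJ had the lowest overlap of the 500-cell libraries, 27.5%, and also the longest of their lists. The median peak width was 57 or 58 nt at 50k and 58 to 60 nt at 500, a difference of 1.25 nt with overlapping groups (exact permutation p = 0.111, adjusted 0.111, n = 4). The 100 genes with most peaks in a library held 8.21% to 8.59% of its peaks at 50k and 8.70% to 9.36% at 500, a difference of 0.61 percentage points (exact permutation p = 0.0556, adjusted 0.0667, n = 4). With every list reduced to the 210295 peaks of smallest p, the length of the shortest list, the last 2 differences turned to -9 nt and -0.81 points. This cut took weak peaks mostly from the longer 50k lists. Peaks with fewer than 8 reads then made up 0% to 1.85% of the lists at 50k and 16.9% to 41.8% at 500. Lists of equal length are therefore not a control for depth.

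**Figure D1:**
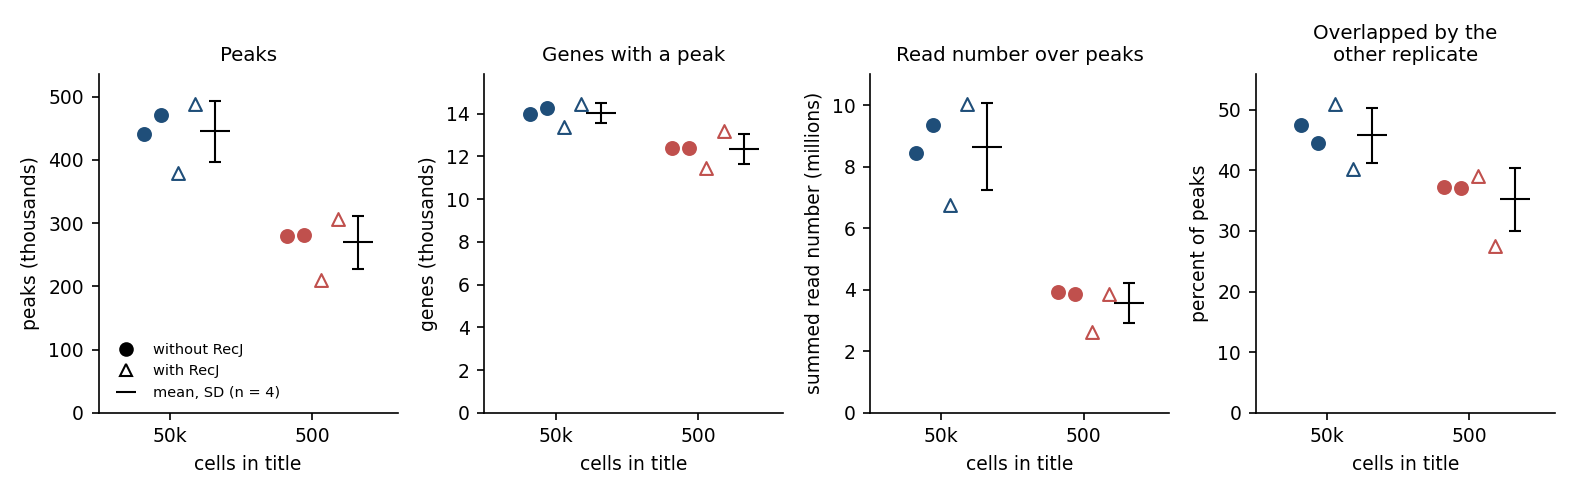
Peaks and genes with a peak (both in units of 1000), summed read number over peaks (in units of 1000000) and percent of peaks overlapped by the other replicate, for each of the 8 hnRNP C libraries by cell number in the title. Circles are libraries without RecJ, triangles those with RecJ, and the bar with whiskers is the mean and SD (n = 4). In each panel the libraries titled 500 lie below those titled 50k, as for the 12383 and 12410 genes without RecJ at 500 against 14005 and 14269 at 50k.

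Few genes disappeared from the lists. A gene was listed where at least 1 peak carried its identifier. The 50k libraries listed 14005, 14269, 13387 and 14439 genes and the 500-cell libraries 12383, 12410, 11482 and 13189. The groups did not overlap, and the log2 difference was -0.18 (exact permutation p = 0.0556, adjusted 0.0667, n = 4 each). Of 12319 genes listed in 4 of 4 50k libraries, 10354 (84.0%) were listed in each of the 4 500-cell libraries as well, 1837 in 1 to 3 of them, and 128 (1.04%) in 0. A single gene, on chromosome 1, went the other way, with 2, 2, 1 and 6 peaks at 500 and none at 50k. It was listed in 4 of 4 libraries from 5k cells.

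The lost genes were those with the fewest peaks. Their median was 1.5 peaks per 50k library, against 23.5 for the genes kept in each of the 8 libraries, and the highest mean among them was 4.25 peaks. Among genes with a mean of 1 to below 2 peaks at 50k, 13.6% were listed in 0 of 4 500-cell libraries and 20.2% in 4 of 4. From 3 to below 5 peaks, 0.626% were in 0 and 49.6% in 4. From 5 to below 10 peaks, 0 of 1909 genes were lost and 82.6% were in 4 of 4, and from 20 to below 50 peaks 3008 of 3009 were. The lost gene with most peaks lies on chromosome 1 and had 2, 7, 2 and 6 peaks at 50k. The next, also on chromosome 1, had 3, 4, 4 and 4. Both were listed in 4 of 4 libraries from 5k cells, as were 40 of the 128 lost genes (31.2%), against 99.7% of the genes kept in each of the 8 libraries. The lost genes had also been thinly covered for other proteins: hnRNPA1 had a peak in both of its 50k libraries in 60.9% of them, against 98.8% of the kept genes. The corresponding shares were 44.5% and 92.5% for hnRNPI and 37.5% and 91.0% for RBFOX2. Genes listed in 1 to 3 of the 500-cell libraries, with a median of 3 peaks at 50k, lay between at 83.6%, 65.7% and 53.4%. These classes were not matched for peak number. The count of lost genes depends on list length. On lists of equal length 12 genes were lost and 42 went the other way, and the 500-cell libraries listed more genes than the 50k libraries (log2 difference 0.08, exact permutation p = 0.0556, n = 4 each). That cut took weak peaks mostly from the 50k lists, which lowers their number of genes. Without replicate 1 or 2 without RecJ or replicate 2 with RecJ at 500, or without replicate 1 with RecJ at 50k, the count of lost genes over the remaining libraries was 215, 217, 237 and 235.

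At the level of single sites the loss was larger and graded by strength. Peaks of the 8 libraries were merged into 1130923 sites where they overlapped on the same strand. Most of these had little support: 633583 were listed in 1 library. The 50k libraries shared 99988 sites and the 500-cell libraries 41468. Of the sites shared by the 4 50k libraries, 32401 (32.4%) were listed in all 4 500-cell libraries, 59408 (59.4%) in 1 to 3, and 8179 (8.18%) in 0. In the opposite direction 78.1% of the sites shared at 500 were in all 4 50k libraries, and 311 (0.750%) were in none of them. Taken 1 library at a time, the 500-cell lists held 67.5% and 67.2% of the shared 50k sites without RecJ and 56.7% and 65.7% with RecJ. The 5k lists held 86.4% and 86.4% without RecJ and 81.2% and 84.3% with RecJ. The libraries of hnRNP C without ultraviolet light, also without PAGE, held 45.1% and 45.6% of the same sites, and those of hnRNPA1, hnRNPI and RBFOX2 from 50k cells between 10.0% and 23.8%.

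Read number at 50k ordered the sites by how often they were kept. Among the 2523 sites with a mean of 6 to below 8 reads, 1.31% were listed in 4 of 4 500-cell libraries and 39.6% in 0. Among the 33363 sites with 12 to below 20 reads these shares were 16.3% and 8.28%, and among the 40516 sites with 20 to below 50 reads 47.0% and 1.85%. Of the 1586 sites with 100 or more reads, 95.0% were listed in 4 of 4 and 4 sites in 0. The 5k libraries lay above the 500-cell libraries in each class. They listed 51.8% of the sites with 12 to below 20 reads and 80.1% of those with 20 to below 50 in 4 of 4 libraries. Within a class the 500-cell library with the shortest list, replicate 1 with RecJ, was the lowest: for 12 to below 20 reads it held 45.9% of the sites, and the others held 59.7%, 59.2% and 57.6%. The class of 20 to below 50 reads was listed in full in 58.2% when that library was left out. With lists of equal length, 2117 sites were lost and 579 appeared, of 60725 shared at 50k.

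**Figure D2:**
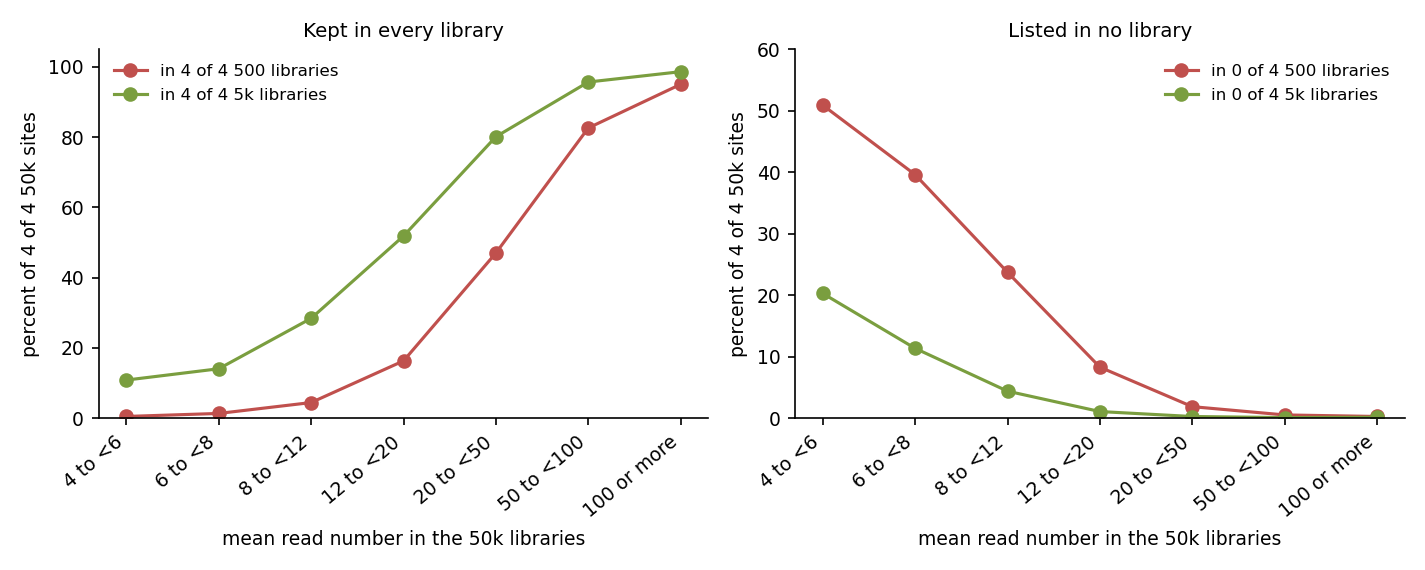
Percent of the sites listed in 4 of 4 50k libraries that were listed in every library (left) or in no library (right) of the 500-cell set and the 5k set, by the mean read number of the site in the 50k libraries. The line for 500 rises from 0.450% at 4 to below 6 reads to 95.0% at 100 or more reads and lies below the line for 5k in each class on the left and above it on the right.

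Strong sites that were listed at 50k and in no 500-cell library were few. There were 39 such sites with a mean of 50 or more reads, and 19 of them lay less than 30 nt from a 500-cell peak on the same strand. Among the 8179 lost sites as a whole, 1449 (17.7%) did, and the median distance was 115 nt. The mitochondrial site chrM:13853-13948 (plus strand) had 387, 473, 308 and 479 reads at 50k and was 3 nt from the nearest 500-cell peak. A site with no such neighbour was chr1:245012417-245012490 (minus strand), which had 119, 138, 93 and 147 reads at 50k. Its nearest 500-cell peak was 222 nt away, and 0 of 4 5k libraries listed it. chrX:107965246-107965279 (minus strand) had 140, 145, 136 and 150 reads, lay 166 nt from a 500-cell peak and was listed in 2 of 4 libraries from 5k cells. chr19:9675138-9675230 (minus strand) had 92, 115, 73 and 116 reads at 50k, lay 108 nt away and was listed in 3 of 4. Of the sites that appeared at 500, chr1:28835069-28835141 (plus strand) had 231, 113, 144 and 139 reads at 500 and lay 11 nt from a 50k peak. The median distance from the sites that appeared to the nearest 50k peak was 62 nt, and 103 of 311 (33.1%) lay less than 30 nt away.

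Within a class of read number, the lost sites were narrower and were listed in smaller shares in hnRNP C libraries that had no part in their choice. The lost sites were 108 nt wide at the median and the sites in all 8 libraries 212 nt; at 12 to below 20 reads the widths were 114 nt and 186 nt. Merging more peaks itself widens a site. The class of 12 to below 20 reads narrows the gap in read number without closing it, since its lost sites had a median of 14.5 reads and its kept sites 16.5. In that class, 25.7% of the 2761 lost sites and 75.6% of the 5429 sites in all 8 libraries were listed in 4 of 4 libraries from 5k cells. In the libraries from 50k cells with 0.025 U of RNase, whose titles do not carry noPAGE, 43.4% of these lost sites and 64.9% of the kept sites were overlapped. The titles of the libraries from 10k and 1k cells do not carry noPAGE either, and these libraries had 0.001 U and 0.0001 U of RNase. Their shares were 31.0% against 52.8% and 20.6% against 38.9%. Without ultraviolet light 25.2% of the lost and 47.9% of the kept sites were overlapped. For other proteins the shares of lost against kept sites were 19.4% against 18.6% for hnRNPA1, 11.7% against 17.5% for hnRNPI and 7.35% against 7.65% for RBFOX2. With sites moved by 1000 nt they were 21.6% against 25.5% for hnRNPA1, 12.7% against 15.3% for hnRNPI and 5.58% against 6.83% for RBFOX2. Both classes thus lay below this background for hnRNPA1 and above it for RBFOX2, and for hnRNPI the kept sites lay above it and the lost sites below. These shares are descriptions without a test, since sites of 1 library are not replicates.

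**Figure D3:**
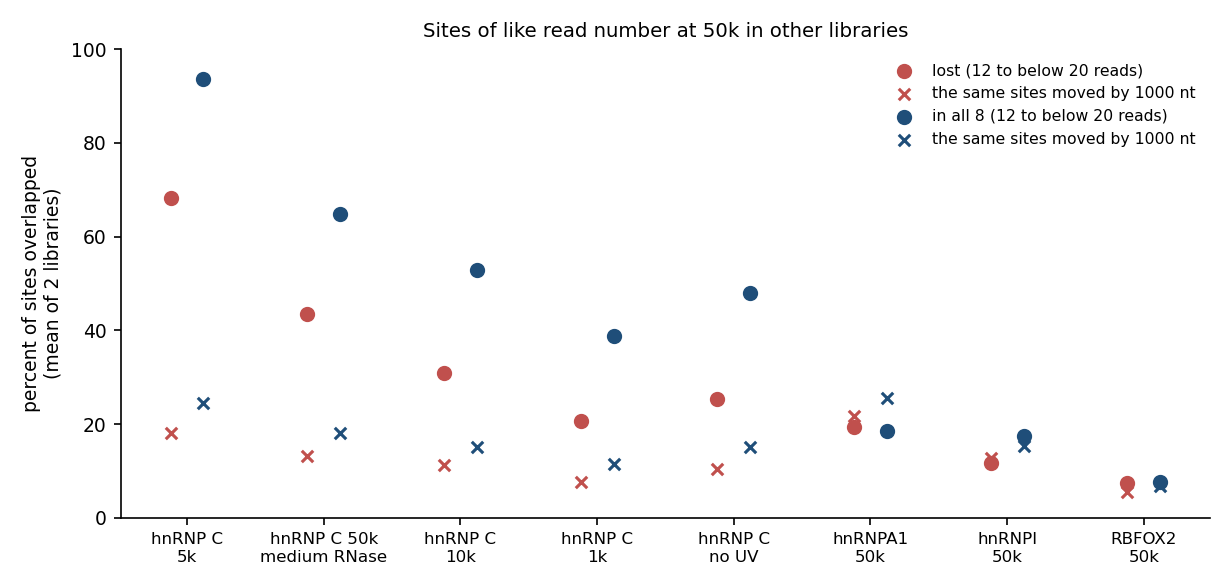
Percent of sites overlapped in other libraries (mean of 2 libraries) for lost sites and for sites in all 8 libraries that had 12 to below 20 reads at 50k. Circles are the sites in place and crosses the same sites moved by 1000 nt. In the 5 hnRNP C sets the kept sites lie above the lost sites, as 93.6% against 68.3% at 5k, while for hnRNPA1, hnRNPI and RBFOX2 both classes lie between 7.35% and 19.4%.

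The lost sites were spread over many genes. They lay in 4285 genes, and 6707 of them (82.0%) lay in a gene that also held a site kept in all 8 libraries. Of the 1433 genes with at least 20 shared 50k sites, 4 had no site kept in all 8 libraries and 224 had no lost site. The median gene kept 32.4% of its sites in all 8 libraries and lost 6.06%.

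Within the genes that remained, the share of peaks shifted between weakly and strongly covered genes. Peaks per gene per 100000 listed peaks were compared by limma on log2(value + 1) with RecJ as a block, over the 9100 genes with a mean of at least 5 peaks. At an adjusted p below 0.05, 2857 genes (31.4% of those tested) were called, 1563 lower (17.2%) and 1294 higher (14.2%) at 500. The groups did not overlap in 1111 of the genes called lower, in 1083 of those called higher and in 29.2% of the genes tested. Changes were mostly small, with a median of -0.57 among the genes called lower and 0.44 among those called higher. A change above 2-fold on this scale was found in 75 of the genes called lower and 2 of those called higher. The filter took the mean over both cell numbers. A gene with a mean below 5 peaks at 500 thus entered only through the libraries with more cells, which favours falls. The numbers of lower calls here and below, and the 75 against 2, are therefore descriptions. How many of them rest on this selection was not tested. With no filter on low numbers, 1602 of 16654 genes were called lower and 1095 higher.

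Reads per peak, taken from the 5k libraries so that the class does not come from the libraries compared, ordered these changes. Of 1646 genes with fewer than 8 reads per peak, 776 were called lower and 0 higher, with a median of -0.48. Of 794 genes with 30 or more reads per peak, 0 were called lower and 502 higher, with a median of 0.42. Genes in between lay in between, with a median of -0.01 from 12 to below 15 reads. The listed span of a gene followed the same order. Among 447 genes spanning 300000 nt or more, 267 were called lower and 16 higher, and their median read number per peak at 50k was 7.80. Among 779 genes under 10000 nt, with 20.8 reads per peak, 8 were called lower and 82 higher.

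This order turned with the length of the lists. With each list reduced to 210295 peaks, the genes under 8 reads per peak had a median change of 0.39 and those with 30 or more of -0.17. Since the cut took weak peaks mostly from the 50k lists, it lowers the share of weakly covered genes at 50k. The turn is given as a description. Of 7001 genes tested then, 649 (9.27%) were called, 417 higher (5.96%) and 232 lower (3.31%). Among the genes called higher on the deposited lists, 25 were also called higher on lists of equal length, and among those called lower 26 were called lower. When the read number of each gene was summed in place of its peaks, 1519 of 9100 genes (16.7%) were called, 1233 higher (13.5%) and 286 lower (3.14%), in the direction of the deposited lists. Leaving out replicate 2 with RecJ at 50k lowered the count to 1696. With RecJ 319 genes were called and without RecJ 1435, and a limma interaction of cell number with RecJ was called in 0 of 9100 genes, with 324 at an unadjusted p below 0.05.

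**Figure D4:**
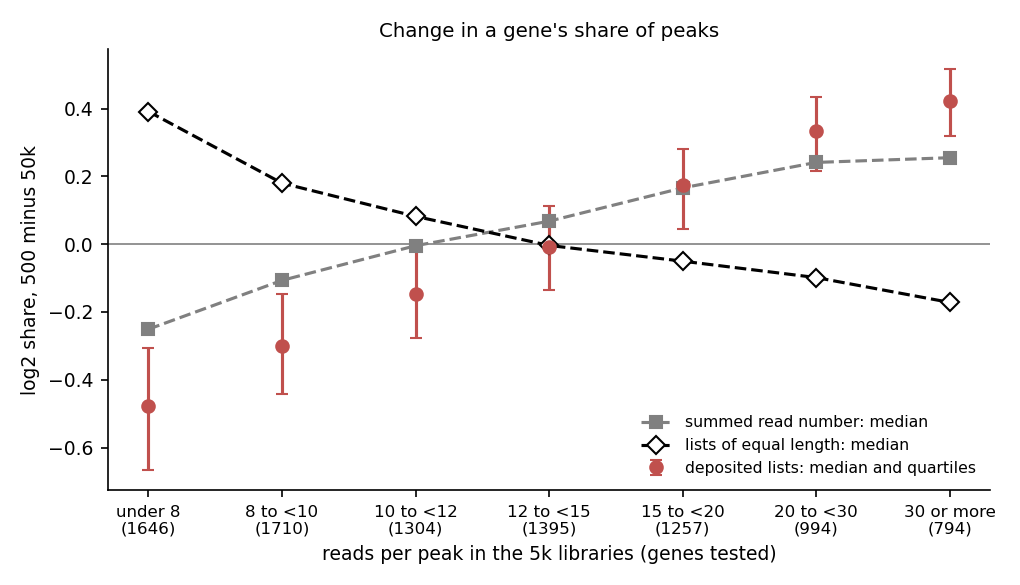
Difference in a gene's log2 share between 500 and 50k cells, by the gene's reads per peak in the 5k libraries, with the number of genes tested in parentheses. Filled circles with whiskers are the median and quartiles for peaks of the deposited lists, squares the median for summed read number and diamonds the median for lists of equal length. The circles rise from -0.48 to 0.42 while the diamonds run from 0.39 to -0.17. The diamonds cover only the genes that also passed the filter on lists of equal length.

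The genes named here are those with the largest changes among called genes whose groups did not overlap. A gene with overlapping groups rose more than either rise given here, by 1.43. ENSG00000228824, on chromosome 13, had the largest fall. It held 27, 28, 27 and 31 peaks at 50k and 9, 1, 1 and 4 at 500. Its 500-cell libraries lay far below each 50k library, and the difference was -1.81 on the log2 share scale (SE 0.26, limma adjusted p = 8.37e-05). On lists of equal length it was -1.30 (limma adjusted p = 0.00465; highest over 19 alternatives 0.0199), so this gene stayed low when the order of the classes turned. ENSG00000132837, on chromosome 5, had 17, 22, 9 and 19 peaks at 50k and 2, 3, 0 and 3 at 500, with few reads per peak (4.84 at 50k). Its difference was -1.50 (SE 0.23, limma adjusted p = 0.000147), and with RecJ libraries alone its limma adjusted p was 0.0504. It fell below the filter on lists of equal length and at p below 1e-05, so it has no value in those settings. ENSG00000228824 has none at p below 1e-05 either. Both genes with a fall had means below the filter of 5 peaks at 500, 3.75 for ENSG00000228824 and 2 for ENSG00000132837. They passed it only through the 50k libraries, so their p-values are descriptions and not support. ENSG00000100664, on chromosome 14, had the largest rise among the non-overlapping genes: 8, 8, 9 and 10 peaks at 50k and 13, 10, 14 and 17 at 500 (log2 difference 1.01, SE 0.17, limma adjusted p = 0.00028). The next largest of them was ENSG00000143815, on chromosome 1, with 19, 21, 20 and 19 peaks against 27, 24, 22 and 31 (0.97, SE 0.13, limma adjusted p = 6.92e-05). Both held over 80 reads per peak at 50k, and both missed the threshold on lists of equal length, where their differences were 0.44 and 0.36 (limma adjusted p = 0.119 and 0.0922, the highest over 20 alternatives each). ENSG00000100664 also missed it with summed read number (0.30, limma adjusted p = 0.104) and ENSG00000143815 with no scaling (0.37, limma adjusted p = 0.081).

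Sites listed in all 8 libraries could be compared by their read number. Of 32401 such sites, limma on log2(read number per 1000000 + 1) called 2475 (7.64%), 2372 higher (7.32%) and 103 lower (0.318%) at 500. The median of all these sites was 0.28 on that scale, so most sites of the shared set took a larger part of the smaller total. Scaled by the median of ratios over the same sites, the median was 0.01 and 594 sites (1.83%) were called, 204 higher (0.63%) and 390 lower (1.2%). The balance of higher and lower calls therefore depends on the scaling, and the site groups are given with both. The count on the total scale rested on single libraries: it was 716 without replicate 2 with RecJ at 50k and 4723 without replicate 2 with RecJ at 500. It was 1047, 1027 and 1573 without replicate 1 or 2 without RecJ or replicate 1 with RecJ at 50k, and 1610 without replicate 1 without RecJ at 500. A limma interaction with RecJ was called for 0 sites, with 1285 at an unadjusted p below 0.05. Nuclear sites outside short genes were also classed by their read number at 5k. A weak site entered only where every 500-cell library listed it, which favours high values at 500. Of the 14830 shared 50k sites with 8 to below 12 reads at 50k, 4.41% were listed in all 4 of them. The medians of the weak classes are therefore shaped by this selection, and no change is read from them. From 4 to below 12 reads the median was 0.19 with median of ratios scaling and 0.41 with total scaling, and 272 of 355 sites lay above 0 with the first. From 12 to below 20 reads the medians were 0.07 and 0.32, and from 20 to below 50 reads -0.01 and 0.26. For the 59 sites with 500 or more reads they were -0.16 and 0.15; 13 of these were called lower and 1 higher with median of ratios scaling, and 2 lower and 6 higher with total scaling.

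The mitochondrial chromosome was the group that fell together. Its 47 sites in all 8 libraries had a median of -0.9998 with median of ratios scaling and -0.69 with total scaling. Under the first 39 of 47 were called lower and 0 higher, and under the second 28 and 0. The site chrM:2758-2900 (plus strand) had the largest fall, from 32211, 34077, 28904 and 37813 reads at 50k to 5325, 4766, 3780 and 4838 at 500. Its log2 change was -1.68 (SE 0.11, limma adjusted p = 8.36e-15) with total scaling and -2.001 with median of ratios. The strongest site of the lists, chrM:2258-2330 (plus strand), had 40714, 44092, 38811 and 51331 reads at 50k and 10121, 9062, 7713 and 8005 at 500. The strongest nuclear site, chr11:62609125-62609282 (minus strand), had 14428, 14551, 12538 and 15404 against 9228, 6280, 6708 and 5184.

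The mitochondrial part of the library totals was lower too. Mitochondrial sites held 14.03%, 13.84%, 15.01% and 13.92% of the summed read number at 50k (14.2% ± 0.55, SD, n = 4) and 6.36%, 6.20%, 6.21% and 4.87% at 500 (5.91% ± 0.70). The 5k libraries lay between, at 9.89% ± 0.20 (n = 4), without overlap with either set. The difference between 500 and 50k was -8.29 percentage points. It was computed because the sites had shown it, and is given as a description with no test. On lists of equal length it was -11.65 points. Where peaks less than 30 nt apart were joined and took the read number of their strongest peak, the shares were 3.61% ± 0.16 and 1.51% ± 0.16 and the difference -2.10 points. In the hnRNP C libraries with 0.025 U of RNase, whose titles do not carry noPAGE, the share was 3.57% and 3.81%. RNase and PAGE cannot be told apart there. Without PAGE, the share was 23.99% and 15.90% for hnRNP C without ultraviolet light and 25.3% and 25.6% for hnRNPA1 from 50k cells. hnRNP C is a nuclear protein, while mitochondrial RNA is made inside mitochondria; the source of these reads was not tested. Of the 55 mitochondrial sites shared at 50k, with a median of 597 reads there, 85.5% were listed in all 8 libraries and 1.82% were lost. Of all shared 50k sites with 100 or more reads, 95.0% were listed in all 8 and 0.252% were lost.

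Sites in short genes inside longer genes moved the other way. A gene counted as short where its peaks over the lists spanned at most 300 nt and lay within the span of a longer gene on the same strand; 957 genes met this. This group and the mitochondrial one were formed after the values had been seen, so their counts describe them and test nothing. Their 108 sites in all 8 libraries had a median of 0.29 with median of ratios scaling, 22 called higher and 0 lower, and of 0.57 with total scaling, 43 higher and 0 lower. The share called higher was thus 20.4% and 39.8%, beside 0.63% and 7.32% of the 32401 sites as a whole. The other nuclear sites had medians of 0.01 and 0.28. These genes held 0.145%, 0.139%, 0.139% and 0.131% of the summed read number at 50k and 0.290%, 0.241%, 0.269% and 0.242% at 500. The 5k libraries, at 0.150% ± 0.016 (SD, n = 4), overlapped those of 50k. Since a peak there is often listed under both genes, reads of the short gene and of its host cannot be told apart in these lists.

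**Figure D5:**
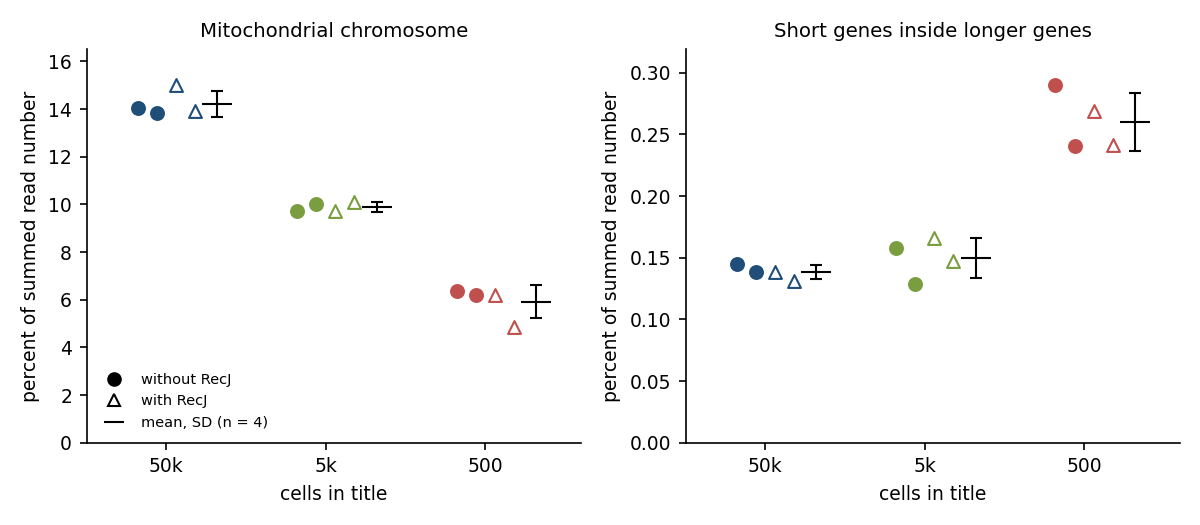
Percent of the summed read number on the mitochondrial chromosome (left) and in short genes inside longer genes (right) for the hnRNP C libraries titled 50k, 5k and 500, with the mean and SD (n = 4). Circles are libraries without RecJ and triangles those with RecJ. The mitochondrial share steps from 14.2% over 9.89% to 5.91%, and the share of short nested genes is 0.138%, 0.150% and 0.260%.

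The largest single rise was at chr11:93466649-93466765 (minus strand), which lies in such a short gene. It had 17, 16, 13 and 22 reads at 50k and 73, 83, 55 and 72 at 500, more reads in the smaller libraries, with a log2 change of 2.83 (SE 0.23, limma adjusted p = 5.82e-12) on the total scale and 2.53 with median of ratios. chr1:28835153-28835231 (plus strand) followed, with 49, 49, 53 and 89 reads against 183, 150, 111 and 160 and a change of 2.39 (SE 0.19, limma adjusted p = 5.82e-12). chr5:138614468-138614564 (plus strand) had 42, 45, 37 and 47 reads against 115, 84, 61 and 77. Each of the 8 largest rises overlapped a short nested gene. Each of them was also overlapped in both libraries made without ultraviolet light, but so were the nuclear sites with large falls given below. As a mean over those libraries, 82.4% of the sites in short nested genes and 65.1% of the sites in all 8 libraries were overlapped there. The share was 92.6% for the mitochondrial sites, which fell. For other nuclear sites it was 65.9% from 20 to below 50 reads at 5k and 80.6% from 50 to below 100. This overlap is thus not particular to the rises.

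Some nuclear sites fell further than the median mitochondrial site. chr6:52860643-52860744 (plus strand) had 1379, 1370, 1209 and 1377 reads at 50k and 322, 256, 248 and 307 at 500, a log2 change of -1.09 (SE 0.14, limma adjusted p = 3.66e-06) with total scaling and -1.40 with median of ratios. chr20:57485825-57486178 (plus strand) had 138, 133, 110 and 140 reads against 32, 14, 21 and 19, a change of -1.39 (SE 0.23, limma adjusted p = 0.000232). chr6:99848685-99848913 (minus strand) had 133, 148, 136 and 155 against 26, 21, 17 and 38 (-1.31, SE 0.21, limma adjusted p = 0.000133). In none of these did the groups overlap. These sites, those of the largest rises and chrM:2758-2900 were chosen for the size of their change after the values had been seen.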

How the data were processed

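The deposited files are CLIPper peak lists, 1 per library, with a p-value per peak from the authors' caller (at most 0.00755 in the 8 lists, no adjustment stated). The submitters' processing notes name hg19, bcl2fastq, STAR 2.7.3a and UMI-tools 1.0.1; of other settings nothing is known here. Peaks were called per library, and between 8711 and 16777 intervals per list repeat under a second gene identifier.

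Sites are peaks of the 8 lists merged by 1 nt or more on the same strand; a site's read number is the highest of its peaks. Single values were tested by exact permutation within RecJ blocks. Genes and sites were tested with limma 3.58.1 in R 4.3.3, checked on simulated data, with a pseudocount of 1. Alternatives are listed in the closing section.

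Named genes are called, non-overlapping genes with the largest change, of which 2 falls and 2 rises are printed; named sites are the strongest lost, kept and appearing ones, 1 per gene, except those of 1 X-linked gene, not reported here. Planned gene lists and cell type markers by symbol could not be applied, since 0 identifiers matched. The members and lists were chosen with earlier results of these data known.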

Additional observations from a re-analysis of the deposited data

Results flagged for a closer look

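Over 25 sets of 4 libraries of 1 cell number, 5 values lay far from the other 3 by Dixon's criterion; chance marks about 1 set in 20. Among the 50k libraries, replicate 1 without RecJ had a median peak width of 57 nt against 58 nt in the others, and replicate 1 with RecJ a median read number of 10 against 11, both of them steps of 1 in whole numbers. Replicate 1 with RecJ at 50k also had the highest mitochondrial share of the summed read number, 15.01% against 13.84% to 14.03%. At 500, replicate 2 with RecJ had the lowest mitochondrial share, 4.87% against 6.20% to 6.36%; without it the difference between cell numbers was -7.95 percentage points. Replicate 1 with RecJ at 500, whose list was the shortest, held 56.7% of the sites shared at 50k against 65.7% to 67.5%.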

How the results depend on the processing

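The alternatives kept the direction of every library-level value except on lists of equal length, where the difference in median peak width was -9 nt, that in log2 genes listed 0.082 and that in the share of peaks in the 100 genes with most peaks -0.81 percentage points, against 1.25, -0.18 and 0.61; peak number has no value there. At p below 1e-05 the widths did not differ in their means. Without the RecJ block the exact permutation p of 5 values dropped to 0.0286 at the same differences (-0.73 for peak number, -0.18 for genes listed, -2.25 for median read number, -10.56 for replicate overlap and 0.61 for the 100 top genes). The difference in mitochondrial share, added after seeing the data, was -8.29 percentage points and moved to -9.28 at p below 1e-05, -11.65 on lists of equal length and -2.10 with joined peaks. Leaving out each library in turn gave -0.87 to -0.59 for log2 peak number, 1 to 1.5 nt for width, -0.23 to -0.13 for log2 genes, -2.5 to -2 for median read number, -13.47 to -7.66 for overlap, 0.44 to 0.77 for the top genes and -8.62 to -7.95 for the mitochondrial share. Whether the replicate numbers pair the libraries is not settled. Same-numbered libraries' deviations correlated between -0.01 and 0.25, the highest being for replicate 1 with RecJ at 50k and at 500. With RecJ and replicate number as blocks, 3064 genes and 2908 sites were called, and the library-level differences were the same, with an exact permutation p of 0.125 at the lowest.

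Genes called numbered 649 on lists of equal length, 6620 with no scaling (2 higher, 6618 lower, median of all genes -0.76), 319 with RecJ, 1435 without RecJ, 1224 at p below 1e-05, 1519 with summed read number, and 1696 to 3326 with 1 library left out. Sites called numbered 594 with median of ratios scaling, 16 of 97936 when listed in at least 6 of 8, 20 with RecJ, 814 without RecJ, and 716 to 4723 with 1 library left out. Genes lost numbered 226 at p below 1e-05, 12 on lists of equal length and 167 to 237 with 1 library left out, and sites lost 2117 on lists of equal length and 10624 to 17442 with 1 left out, where the rule needs 1 library fewer. The percent of sites with 20 to below 50 reads kept in all 500-cell libraries was 47.0, and 45.6 on lists of equal length, 45.3 with a 10 nt overlap, 48.9 with joined peaks and 41.1 to 58.2 with 1 left out (added after seeing the data). Depth is unknown, and a site missing from a list had no peak called there, which does not show it unbound.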

Other observations

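Recovery of the shared 50k sites varied moderately between nuclear chromosomes. The percent of sites kept in all 8 libraries was lowest on chromosome 15 (26.7% of 2846 sites, with a median of 16.8 reads at 50k) and highest on chromosome X (37.2% of 3192 sites, 22.2 reads), followed by chromosome 19 (36.9% of 3399 sites, 21.2 reads). The percent lost was highest on chromosome 15 (10.51%) and lowest on chromosome 22 (6.42% of 2852 sites, 21.2 reads). The chromosomes with more reads per site were those that kept more, as for the sites as a whole, and no test was made.

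Of the 168 shared 50k sites in short genes inside longer genes, a group formed after the values had been seen, 64.3% were listed in all 8 libraries and 7 (4.17%) were lost. Of the 99988 shared 50k sites as a whole, 32.4% were listed in all 8 and 8.18% were lost, and no test of the difference was made.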
